A study of Mus musculus with 3 samples.

Results

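Cyclin-dependent kinase inhibitors are the small proteins that stop the cell cycle by binding the kinases that drive it, and the 7 genes described here are Cdkn1a, Cdkn1b and Cdkn1c of the Cdkn1 family and Cdkn2a, Cdkn2b, Cdkn2c and Cdkn2d of the Cdkn2 family. They were chosen by name, and every open chromatin window whose midpoint lay inside one of these genes or within 10 kb of it was taken. That gave 12 windows of 13500 in all, 5 at the Cdkn1 genes and 7 at the Cdkn2 genes. The windows come from ATAC-seq, which uses the transposase Tn5 to cut and tag accessible DNA, on cells digested from the root end of the first molars of C57BL/6 mice at postnatal day 7.5. The libraries were 2 labelled Arid1a fl/fl, the controls, and 1 labelled Gli1-CreER;Arid1a fl/fl, the mutant. All carried the floxed Arid1a alleles, and the labels give 1 protocol for them, with tamoxifen injected at postnatal day 3.5 (1.5 mg per 10 g body weight) and 5000 cells per library. Gli1-CreER limits deletion of Arid1a, a subunit of SWI/SNF chromatin remodellers, to cells that express Gli1 when tamoxifen is given. The deposited windows are a union list of peaks in which no library is named, taken here as pooled from these libraries. No value below therefore compares mutant with control or has a replicate error. The read depth is unknown, and a region absent from the list is not thereby closed chromatin.

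The inhibitors act at the step from G1 into S phase. Proteins of the Cip/Kip group, encoded by the Cdkn1 genes, bind cyclin-kinase pairs of several kinds, and those of the Ink4 group, encoded by the Cdkn2 genes, bind the kinases Cdk4 and Cdk6 and keep them from D-type cyclins. Tooth root progenitors leave the cell cycle as they become odontoblasts, and the series asks how Arid1a and the zinc finger factor Plagl1 bear on that arrest. Plagl1, also named Zac1, is itself an antiproliferative transcription factor, and its motif is the one searched in the windows. A motif site is a match in the DNA sequence and not a measurement of binding.

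The sequences on which the comparison of sites rests are the 4 Plagl1 motif sites found in their windows, shown 5′ to 3′ on the motif strand with the G-rich core, positions 4 to 7 counted from the 5′ end, in capitals. They are given first because 3 of them lie at Cdkn1 genes and 1 near a Cdkn2 gene.
Cdkn1b, chr6:134920465-134920474, plus strand: aggGGGGctc
Cdkn1c, chr7:143461055-143461064, minus strand: gagGAGGccc
Cdkn1c, chr7:143461137-143461146, plus strand: acaGAGGccc
Cdkn2c, chr4:109657480-109657489, minus strand: aagGAGGccg
Position 5 was A in the sites of Cdkn1c and Cdkn2c and G in that of Cdkn1b. Among all 5753 sites, position 6 was always G and position 5 was A in 44.8%.

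Every one of the 7 inhibitor genes had at least 1 window by the 10 kb rule, which 59.5% of 21887 protein-coding genes did. Cdkn2c had 3 windows, Cdkn1a, Cdkn1b and Cdkn2d had 2 each, and Cdkn1c, Cdkn2a and Cdkn2b had 1 each. Thus 4 of the 7 genes (57.1%) had 2 or more windows, against 21.2% of protein-coding genes, and 1 of 7 had 3 or more, against 5.11%. This count moved with the rule: 2 genes, Cdkn1a and Cdkn2d, had 2 or more windows within 1 kb, against 6.71% of protein-coding genes by that rule, and 1 gene, Cdkn1a, did when a window counted for its nearest gene only or when windows at another gene were left out. Within 25 kb, 6 genes had 2 or more windows, a count for which no share of all genes was computed. The families had nearly the same density of windows over their genes and flanks, with 6.44 per 100 kb for Cdkn1 and 6.64 per 100 kb for Cdkn2. All protein-coding genes with their flanks had 0.956 per 100 kb, genes of any length and those without a window included. The likeness of the families rests partly on windows at neighbours, since by nearest gene 4 windows remained for Cdkn1 and 3 for Cdkn2. No test was made of these counts, since 3 genes against 4 are not replicates and Cdkn2a and Cdkn2b are neighbours on chromosome 4 whose 10 kb flanks overlap.

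**Figure D1:**
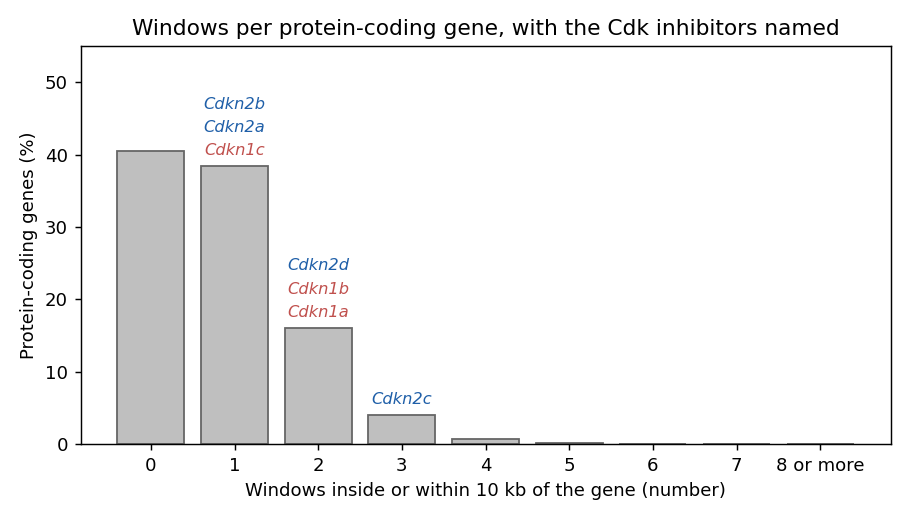
Number of open chromatin windows inside or within 10 kb of each protein-coding gene (x axis) against the percentage of protein-coding genes with that number (y axis, bars). The names of the Cdk inhibitors stand over the bar of their own count, Cdkn1 genes in red and Cdkn2 genes in blue, and none stands over 0, which holds 40.5% of genes.

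The 12 windows fell into a group of 7 at the members' own starts, 1 for each gene, and a group of 5 elsewhere. A start here is one listed in RefSeq with strand, and a window was at it when its midpoint lay within 1 kb. Cdkn1c, which had no entry in the table of starts, was placed by its nearest gene end. Of the other 5 windows, 4 lay within 1 kb of an end of a different gene, and the remaining one was the second window of Cdkn1a. A gene other than the inhibitor lay within 1 kb of, or held, 1 of the 5 Cdkn1 windows and 5 of the 7 Cdkn2 windows. These included the windows more than 1 kb outside an inhibitor gene, 1 for Cdkn1 and 2 for Cdkn2. The share over all windows was not computed for this measure, and the difference was not tested. In or within 1 kb of 2 or more genes at once lay 3 of the 12 windows (25%), all of Cdkn2 genes, against 26.4% of all windows.

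**Figure D2:**
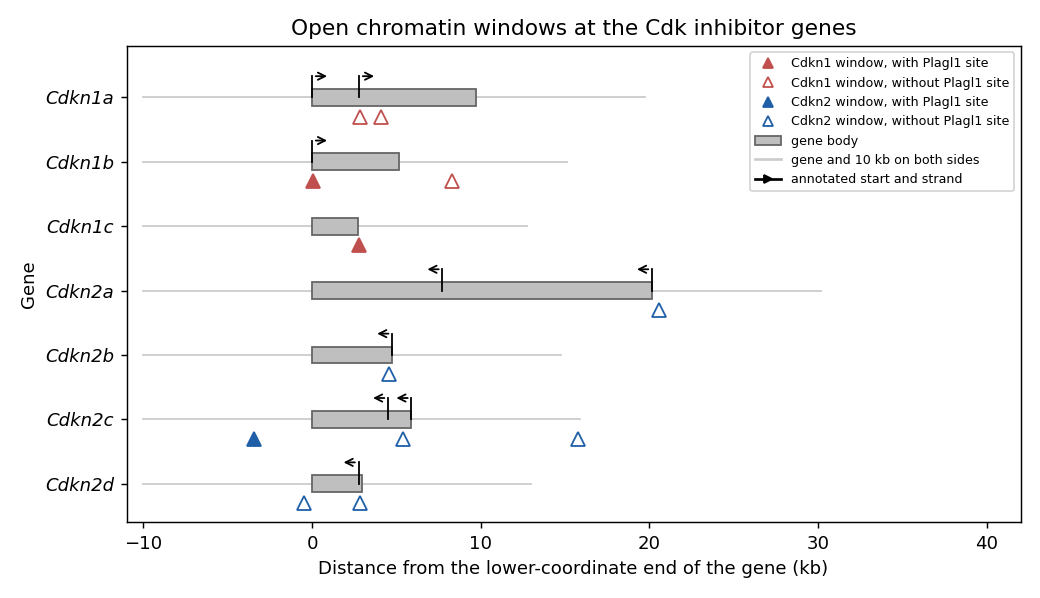
Map of the 7 genes with the distance from the lower-coordinate end of each gene in kb (x axis). Grey boxes are gene bodies, grey lines reach 10 kb to both sides, arrows are annotated starts with their strand, and triangles are window midpoints, filled where the window holds a Plagl1 motif site. Filled triangles stand at Cdkn1b and Cdkn1c next to the gene end, and at Cdkn2c 3430 bp outside the gene.

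Cdkn1a encodes Cip1, the inhibitor that p53 induces after DNA damage. The gene spans chr17:29090979-29100722 and has 2 listed starts on the plus strand. Both of its windows lay inside the gene. The first, chr17:29093725-29093925, had its midpoint 56 bp after the second start, at position 29093769, and the other, chr17:29094980-29095180, lay 1311 bp after that start. The first start had no window within 1 kb, its nearest being 2846 bp downstream. Neither window held a motif site. In GC content the windows were alike, at 61.2% and 60.7%, which is 123 and 122 of 201 bases, with 7 and 5 CpG dinucleotides per 100 steps between neighbouring bases. The next window beyond the 10 kb rule was 58.4 kb away.

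Cdkn1b encodes Kip1, an inhibitor controlled largely by degradation of the protein. It spans chr6:134920401-134925525. Its first window, chr6:134920351-134920551, was centred 50 bp after the start and held 1 site with a score of 5.56, beginning 64 bp after the start. The second window, chr6:134928575-134928775, lay 3150 bp beyond the far end of the gene and 417 bp from the end of Lockd, a long noncoding RNA gene, and held no site. The GC content was 57.7% in the first window and 54.7% in the second, the lowest of the 12, and the CpG content was 7 and 4 per 100 steps.

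Cdkn1c encodes Kip2 and is an imprinted gene, expressed mainly from the maternal copy. It spans chr7:143458339-143461059, and its 1 window, chr7:143461044-143461244, had its midpoint 85 bp outside the higher-coordinate end. No other gene of the table lay within 1 kb of that midpoint. It was the only one of the 12 windows with 2 sites, of scores 5.90 and 6.24. It also had the highest CpG content of the 12, at 14 CpG per 100 steps, and a GC content of 72.1%. The site of score 6.24 lay near the middle of the window, while that of score 5.90 lay across the end of the gene. The next window was 88.0 kb away, so no other region of the list lay near this gene.

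Cdkn2a encodes the Ink4a inhibitor of Cdk4 and Cdk6 and, from a separate first exon and another reading frame, Arf, which stabilises p53. The gene spans chr4:89274473-89294619 on the minus strand, with the Arf start at 89294619 and the Ink4a start at 89282192. Its 1 window, chr4:89294927-89295127, lay 408 bp upstream of the Arf start and 153 bp from the end of the noncoding gene Gm12610, and held no site. The Ink4a start had no window nearer than 12.8 kb. Of the 2 products of this gene, the start of Arf alone thus had a window within 1 kb. The window stood apart in base composition, with only 59.7% GC but 11.5 CpG per 100 steps. Its CpG count was 1.28 times that estimated from its GC content with G and C taken as equal in number, the highest such ratio of the 12, with 99.6% of all windows at or below it.

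Cdkn2b encodes Ink4b, an inhibitor induced by TGF-beta in epithelial cells. It spans chr4:89306289-89311032 on the minus strand and had 1 window, chr4:89310771-89310971, centred 161 bp after its start. That window held no site and had 67.2% GC and 10 CpG per 100 steps. It also lay within Gm12610, 15691 bp from the nearer end of that long noncoding gene. The window upstream of the Arf start lay 11262 bp from Cdkn2b and was the nearest one just outside the rule, as the window at Faf1 described next, 9898 bp from Cdkn2c, was the farthest inside it.

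Cdkn2c encodes Ink4c. It spans chr4:109660876-109666756 on the minus strand and has 2 listed starts. The window inside the gene, chr4:109666167-109666367, lay between them, 489 bp after the start at 109666756 and 895 bp before that at 109665372. It held no site and had 66.7% GC and 10 CpG per 100 steps. The other 2 windows were at neighbours. One, chr4:109657346-109657546, lay inside the noncoding gene 9630013D21Rik, 142 bp from its end, and held the 1 site of the Cdkn2 windows, of score 5.83. The other, chr4:109676554-109676754, lay 27 bp inside an end of Faf1, which encodes a protein of Fas signalling and ubiquitin binding, and had the highest GC content of the 12 at 74.6%, with no site.

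Cdkn2d encodes Ink4d. It spans chr9:21288459-21291421 on the minus strand. Its start window, chr9:21291218-21291418, lay 109 bp upstream of the listed start at 21291209 but inside the gene, 103 bp from the higher-coordinate end. This window held no site and had 65.2% GC and 7 CpG per 100 steps. The other window, chr9:21287848-21288048, lay 511 bp beyond the far end of Cdkn2d and inside Kri1, 21 bp from an end of that gene, which encodes a ribosome biogenesis factor. It had a nearly equal GC content of 65.7% but 11.5 CpG per 100 steps, and no site.

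The DNA upstream of the starts is shown for the genes where the window covered it, and for the pairs of starts of which 1 had a window and 1 had none. Each line gives the 250 bases before a start, 5′ to 3′ on the strand of the gene, from RefSeq (GRCm38.p6). Capitals mark the bases that lie in a window.
Cdkn1a, first start, chr17:29090729-29090978, plus strand: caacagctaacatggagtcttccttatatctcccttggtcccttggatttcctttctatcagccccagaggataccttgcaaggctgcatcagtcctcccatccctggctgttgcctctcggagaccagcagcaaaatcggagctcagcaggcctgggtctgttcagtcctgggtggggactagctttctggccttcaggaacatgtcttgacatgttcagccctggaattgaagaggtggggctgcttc
Cdkn1a, second start, chr17:29093519-29093768, plus strand: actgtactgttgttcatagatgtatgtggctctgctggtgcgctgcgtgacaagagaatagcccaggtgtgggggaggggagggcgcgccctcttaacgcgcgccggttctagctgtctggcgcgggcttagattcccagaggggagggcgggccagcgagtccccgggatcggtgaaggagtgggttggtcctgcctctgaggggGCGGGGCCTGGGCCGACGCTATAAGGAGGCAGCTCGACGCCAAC
Cdkn1b, chr6:134920151-134920400, plus strand: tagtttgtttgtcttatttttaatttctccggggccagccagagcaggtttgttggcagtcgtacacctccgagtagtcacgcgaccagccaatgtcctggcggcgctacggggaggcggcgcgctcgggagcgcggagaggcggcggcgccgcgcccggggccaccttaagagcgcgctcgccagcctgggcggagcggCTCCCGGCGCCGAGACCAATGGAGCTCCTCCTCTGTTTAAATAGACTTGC
Cdkn2a, Arf start, chr4:89294620-89294869, minus strand: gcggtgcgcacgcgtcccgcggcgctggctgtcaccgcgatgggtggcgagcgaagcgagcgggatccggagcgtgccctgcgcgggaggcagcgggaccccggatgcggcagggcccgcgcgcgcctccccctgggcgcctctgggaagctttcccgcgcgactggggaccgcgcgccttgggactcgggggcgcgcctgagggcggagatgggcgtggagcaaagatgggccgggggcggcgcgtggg
Cdkn2a, Ink4a start, chr4:89282193-89282442, minus strand: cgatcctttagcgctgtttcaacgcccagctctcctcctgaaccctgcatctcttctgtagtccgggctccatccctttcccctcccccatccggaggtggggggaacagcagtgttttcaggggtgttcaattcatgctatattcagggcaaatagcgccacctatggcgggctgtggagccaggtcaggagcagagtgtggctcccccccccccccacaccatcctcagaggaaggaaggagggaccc
Cdkn2d, chr9:21291210-21291459, minus strand: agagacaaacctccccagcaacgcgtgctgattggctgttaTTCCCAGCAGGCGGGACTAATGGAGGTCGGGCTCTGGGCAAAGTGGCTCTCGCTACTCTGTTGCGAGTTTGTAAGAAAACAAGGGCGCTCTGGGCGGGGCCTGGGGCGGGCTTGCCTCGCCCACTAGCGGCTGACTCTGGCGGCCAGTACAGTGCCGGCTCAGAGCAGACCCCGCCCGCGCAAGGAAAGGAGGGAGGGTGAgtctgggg
The window of Cdkn2d lay wholly within these bases, all 201 of them, while that of Cdkn1b covered the last 50 and that of Cdkn1a the last 44 before the second start. The Arf window began farther upstream than the bases shown.

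Promoters of 300 bases, from 250 before a start to 50 after it, were listed for 9 starts of 6 of the genes. A window lay within 1 kb of 7 of the 9 starts (77.8%), against 48.6% of all listed starts of protein-coding genes. Both starts of Cdkn2c were counted through the same window. The 2 starts without a window within 1 kb were the first start of Cdkn1a and the Ink4a start. They had 2 and 12 CpG in 300 bases, where the other start of the same gene had 23 for Cdkn1a and 45 for Arf. The remaining promoters had 30 CpG at Cdkn1b, 18 at Cdkn2b, 22 at Cdkn2d, and 33 and 8 at the starts of Cdkn2c at 109666756 and 109665372. Over all listed promoters the median was 23 CpG with a window within 1 kb and 4 without. A gene with some starts with and some without a window was not unusual, since 28.0% of 2761 genes with 2 or more listed starts were of that kind.

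Letters of common promoter elements were searched in the same 300 bases on both strands. GGGCGG, the GC box that Sp factors bind, was found in 7 of the 9 promoters, against 46.2% of all promoters, with 5 copies at Cdkn2d, 4 at the start of Cdkn2c at 109666756, 3 at Arf and 2 at the second start of Cdkn1a. There was 1 copy each at Cdkn1b, Ink4a and Cdkn2b, and it was not found at the first start of Cdkn1a or the start of Cdkn2c at 109665372. CCAAT, the letters that NF-Y recognises, was found in 4 of 9, against 38.2%, with 3 copies at Cdkn1b. CACGTG was found in 1 of 9, at Cdkn2c, against 7.84%. TATAAA was found in 0 of 9, against 12.6%. The 10-base sequences of the deposited Plagl1 sites, 642 in number, were found in 2 of the 9 promoters, against 40.1% of all. This count could not include the window sites of the Cdkn1 genes. Cdkn1c, whose window held 2 sites, had no listed promoter and was not searched. The Cdkn1b site began 64 bp after the start, beyond the bases searched. The 2 matches found were at Cdkn2c, one at each start and both outside its windows. They are shown on the motif strand with the core in capitals.
Cdkn2c, start at 109665372, chr4:109665366-109665375, plus strand: agaGGGGctc
Cdkn2c, start at 109666756, chr4:109666742-109666751, plus strand: aagGAGGctc
These sequences score 5.85 and 6.03 where they occur in deposited windows. A GC box can overlap a Plagl1 match, and overlaps were not removed.

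In base composition the Cdkn1 windows had lower medians than the Cdkn2 windows, with wide overlap. The median GC content was 60.7% for the 5 Cdkn1 windows (range 54.7 to 72.1%) and 66.7% for the 7 Cdkn2 windows (range 59.7 to 74.6%), where all windows had a median of 66.7%. The median CpG content was 7 per 100 steps for Cdkn1 (range 4 to 14) and 10 for Cdkn2 (range 7 to 12.5), beside 9 for all windows. Below the median GC content of all windows were 4 of the 5 Cdkn1 windows and 3 of the 7 Cdkn2 windows, and below the median CpG content were 4 of 5 and 2 of 7. Cdkn1c was the exception in its family, at the 73.3rd percentile of all windows for GC and the 87.9th for CpG content. The windows at the members' own starts had the same order, with medians of 61.2% GC in 3 windows for Cdkn1 and 66.0% in 4 windows for Cdkn2, and ranges of 57.7 to 72.1% and 59.7 to 67.2% that overlap. With so few windows and no replicate error, a difference between the families beyond the spread within them was not shown.

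**Figure D3:**
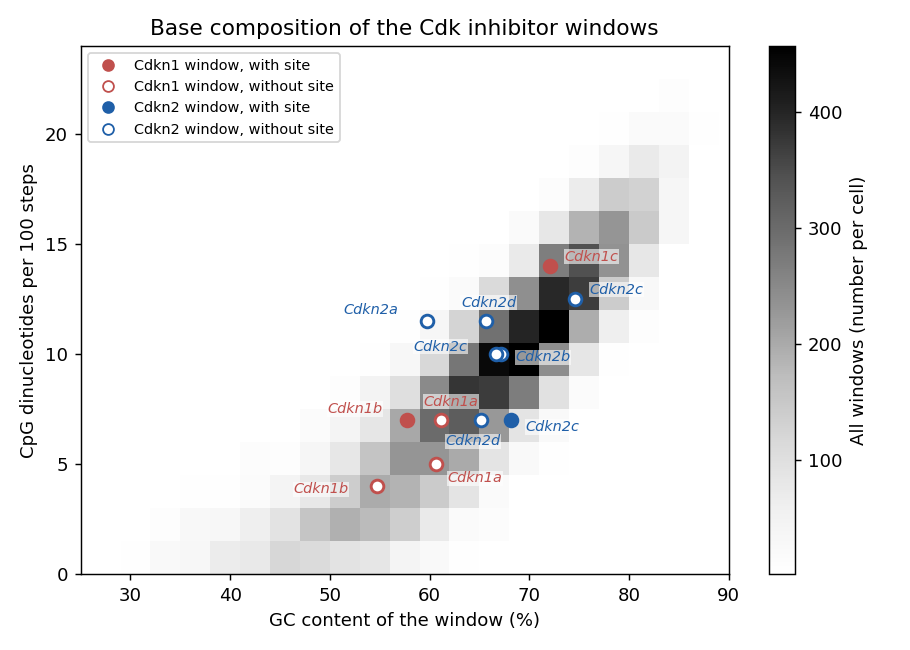
GC content of each window in percent (x axis) against CpG dinucleotides per 100 steps (y axis), with the number of all 13500 windows per cell in grey and the 12 Cdk inhibitor windows as named circles, filled where a window holds a Plagl1 site. The Cdkn2a window lies at the thinly filled upper left edge of the grey cells, at 59.7% GC and 11.5 CpG per 100 steps, and Cdkn1c is the Cdkn1 window highest in CpG.

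Plagl1 motif sites were found in 3 of the 12 windows (25%, exact Clopper-Pearson 95% interval 5.49 to 57.2%), against 32.9% of all windows. By family they were in 2 of 5 Cdkn1 windows (40.0%, interval 5.27 to 85.3%) and 1 of 7 Cdkn2 windows (14.3%, interval 0.361 to 57.9%), intervals that cover counting error only and overlap widely. By gene, 3 of 7 inhibitors (42.9%) had a site in a window, where 42.1% of protein-coding genes with a window did, so the share among the inhibitors was close to the background. The members' own start windows held sites at 2 of 3 Cdkn1 genes, Cdkn1b and Cdkn1c, and at 0 of 4 Cdkn2 genes. The share over the start windows of all genes was not computed, and this difference was not tested. The matches at the 2 starts of Cdkn2c lay outside its windows and were not counted. The site that was counted for Cdkn2c belonged to the window at 9630013D21Rik.

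The scores of the 4 sites were unremarkable among all sites, which had a median score of 5.94, a lowest of 5.51 and a highest of 7.74. The Cdkn1b site, at 5.56, stood close to the lowest score, with 10.3% of sites at or below it. The Cdkn2c site at 5.83 and the first Cdkn1c site at 5.90 had 39.5% and 45.1% of sites at or below them. The other Cdkn1c site, at 6.24, was the only one of the 4 above the median, with 73.5% at or below it. Their sequences also occurred elsewhere in the list. With the site itself counted, that of the first Cdkn1c site occurred 33 times, that of Cdkn1b 14, that of Cdkn2c 13 and that of the second Cdkn1c site 11.

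**Figure D4:**
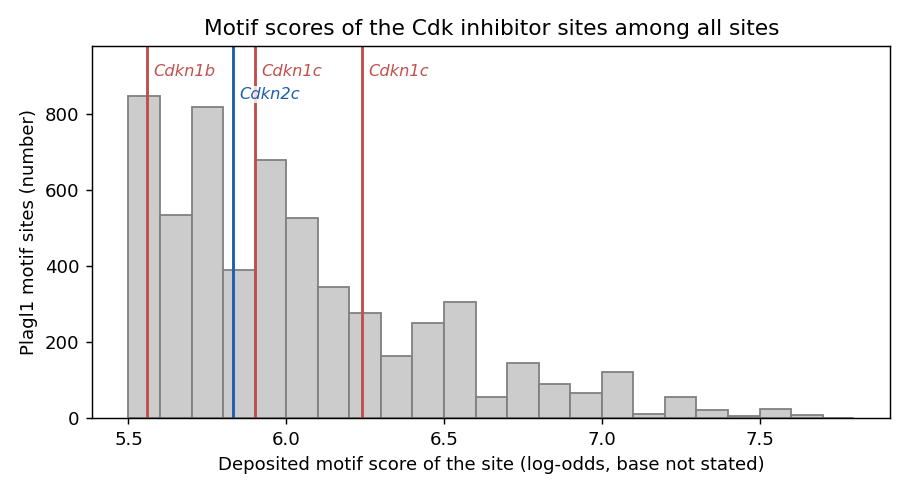
Histogram of the deposited motif scores of all 5753 Plagl1 sites (x axis, log-odds score with its base not stated) by number of sites (y axis), with vertical lines at the 4 sites of the Cdk inhibitors, Cdkn1 in red and Cdkn2 in blue. The Cdkn1b line at 5.56 is next to the lower limit and the highest line, Cdkn1c, is at 6.24.

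The partners and regulators of the inhibitors, with 3 genes named after the family, were described by the same 10 kb rule. A site counted for one of them can therefore lie at a neighbouring gene, which was not examined. All 35 genes of this list had a window, as had the 7 inhibitors, against 59.5% of protein-coding genes, and 15 of the 35 (42.9%) had a site in one, against 42.1% of protein-coding genes with a window. Of the 4 kinases that the inhibitors bind, Cdk2 and Cdk4 had 2 sites each. Of 7 cyclins, 4 had a site, among them Ccne1 with 5 and Ccnd3 with 4, partners of Cdk2 and of Cdk4 and Cdk6, and the mitotic cyclin Ccnb1 with 1, as many as Ccnd1. Of the 3 pocket proteins that the kinases phosphorylate, Rbl1 had 1 site. Of 12 genes that act on inhibitor transcription, 4 had a site, with 5 at Smad3, a transducer of TGF-beta signals, 2 at the Polycomb gene Bmi1, which represses Cdkn2a, and 1 each at Smad2 and Sp1. Of 6 genes that act on inhibitor turnover or on the Arf target, 3 had a site, with 2 at Cks1b and 1 each at Cul1 and Fbxo31, the first a cofactor and the others parts of ubiquitin ligases. Cdkn3, a phosphatase that shares the name but not the family, had 1 site, and Plagl1 had 1 window without a site.

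Of the markers of the cell types that the digest could hold, 9 of 12 of dental mesenchyme had a window by the 10 kb rule, as had 2 of 8 of dental epithelium, 3 of 6 of endothelium, 4 of 7 of immune cells and 3 of 6 of glia and neurons, against 59.5% of protein-coding genes. The counts for endothelium, immune cells, glia and neurons lay near that share. No list was tested, and none of the counts, those of mesenchyme and epithelium included, says which cell types were present. Markers without a window included Prrx1, Prrx2 and Lhx8 of dental mesenchyme, the keratin Krt14 and the adhesion molecule Epcam of epithelium, and Pecam1 of endothelium. Which cells the inhibitor windows come from was not tested.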

How the data were processed

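The windows are a union list of peaks with no library named, per the file headers. They were taken as pooled from the ATAC-seq libraries of molar cells. HOMER's annotatePeaks searched 1 motif, Zac1 (Plagl1), in mm10 around each centre. The submitters' processing notes name cutadapt 1.18, Bowtie2 2.3.5 and MACS2 2.1.1. The rule by which regions entered the list is not stated. The deposited GC value is a fraction of bases and the CpG value a ratio of CpG dinucleotides to steps between bases, per the file headers, given here as percent and per 100 steps. The deposited score is HOMER's log-odds score. Windows of 201 bp, in 1-based mm10 positions, were joined to RefSeq genes and promoters (GRCm38.p6). All 5753 sites matched between the files. Of 1543 windows inside a listed promoter, all 1543 had the GC and CpG counts that the deposited values give after rounding, which were whole within 0.01 in all windows of the list but 2 for GC and 1 for CpG.

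A window belonged to a gene when its midpoint lay inside or within 10 kb. Assignment was tested on simulated data. The 7 members and the lists were chosen with earlier results of these data known. Named are all members with their windows and sites, genes within 1 kb of a member window, and up to 3 listed genes per role with most sites, ties taken in alphabetical order. Distances, overlap and score limits were varied. The searches of starts, promoters and common elements were chosen after the data were seen. No test was run. Python 3.11.15, pandas 2.3.3, scipy 1.17.1 and matplotlib 3.10.9 were used.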

Additional observations from a re-analysis of the deposited data

How the results depend on the processing

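All 7 genes had a window, and at least 34 of the 35 genes listed with them, at 1, 5, 10 and 25 kb and when any base of the window counted. Counting a window for its nearest gene only left 6, since the Arf window went to Gm12610, and left 3 Cdkn2 windows in place of 7, while without windows at another gene, an alternative chosen after the data were seen, there were 2 Cdkn2 windows and 5 genes. Within 1 kb of a listed start, also chosen after the data were seen, 6 genes had a window. The genes with 2 or more windows fell from 4 to 2 at 1 kb and to 1 by nearest gene and without windows at another gene. They rose to 6 at 25 kb. The Cdkn1 windows with a site numbered 2 in the main analysis and 3 at 25 kb. The Cdkn2 windows with a site numbered 1 in the main analysis and 2 at 25 kb. For Cdkn2 there were 0 at 1 kb, by nearest gene and without windows at another gene, by construction, because the site lies at 9630013D21Rik. With sites at or above the median score of 5.94, the windows with a site were 1 for Cdkn1 and 0 for Cdkn2, and at or above the upper quartile of 6.25 they were 0 for both. The median GC content stayed between 59.2 and 60.9% for Cdkn1 and between 65.7 and 66.7% for Cdkn2. The median CpG content per 100 steps was 7 for Cdkn1, and 6 at 25 kb. For Cdkn2 it was 10, but 8.5 without windows at another gene, below the 9 of all windows. No paired analysis was possible because no value is given by library. The unknown read depth limits what an absent window means.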

Other observations

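Beyond the 10 kb rule but within 25 kb, the inhibitor genes had a few further windows, each close to an end of a neighbour. One lay 22181 bp from Cdkn1b and 26 bp from an end of Gpr19, which encodes an orphan G protein-coupled receptor, with 49.3% GC and 1 Plagl1 site of score 5.91. Another lay 23212 bp from Cdkn2d and 42 bp from an end of Atg4d, an autophagy protease gene, with 65.7% GC and 2 sites of scores 5.86 and 5.55. Cdkn2a and Cdkn2b had each other's window in this range, at 16252 and 11262 bp, and neither held a site. These windows were singled out after their values were seen.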
